A study of Drosophila melanogaster and Drosophila simulans and Drosophila yakuba with 72 samples.

Results

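MicroRNAs (miRNAs) are RNAs of about 22 bases that are cut from a hairpin and lower the translation and stability of messenger RNAs, mainly by pairing through bases 2 to 8 from their 5′ end, the seed. Either arm of a hairpin can be kept as the mature miRNA. The account below covers probes for 6 miRNA genes, miR-2500, miR-965, miR-956, miR-289, miR-986 and miR-314, in 3 Drosophila species. Probes were taken by name: any probe of the array whose own name, or whose name in the D. melanogaster column, was one of these 6 with any species prefix and arm suffix. This found 18 of the 1339 miRNA probes. The 6 genes were selected because levels in males had already been seen to differ between species in these same samples, so the male levels are given as a description, without a test. Stage changes in males rest on the same levels and are given in the same way. Where calls for them are counted or drawn below, those calls are a description and not a test of these genes. Tests are given for females and for differences among D. melanogaster strains. The strain tests use male samples that also entered the selection, although differences among strains were not what was selected on.

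The study compared miRNA levels at the onset of metamorphosis between genotypes, species and sexes in 72 samples on 36 two-colour arrays. The animals were D. melanogaster (the strains Zimbabwe-109, Samarkand, Canton-S and Oregon-R), D. simulans (genotype label 14021-0251.167) and D. yakuba (14021-0261.00), frozen at an earlier stage or at puparium formation (PF), when the larva becomes a prepupa. The earlier stage is labelled as at least 18 before PF, with no unit, and is read here as hours. Each of the 18 groups held 4 samples. All 6 strains are represented by males, and D. simulans, Zimbabwe-109 and Oregon-R also by females. Every sample was RNA of 60 to 80 pooled whole animals raised at 25 °C on food with bromophenol blue. One stock stands for D. simulans and one for D. yakuba, so stock and species cannot be told apart, and in whole animals fewer cells of a type and less RNA per cell cannot be told apart either.

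Levels are log2 intensities after background correction and normalization, and a change of 1 is a doubling of the corrected signal. Probes with no signal sat near 6 on this scale, because an offset of 50 was added to every intensity, so differences that involve such values are compressed. To count as above background, the median intensity of a probe had to lie 3 SD over the empty spots of the same array and dye. That limit differs between samples, so a sample can be below it at a level where another is above. Between 87 and 278 probes were above background per sample, with a median of 163.5 in males and 207.5 in females. The 36 arrays lay on 7 slides, as inferred from a number in the deposited names of the arrays, since no label states the slide. No slide held both sexes. Among D. melanogaster males only Zimbabwe-109 and Samarkand shared a slide, so most differences among strains cannot be told apart from differences among slides. Muscle markers (miR-1, miR-133) had 2 of 3 probes tested and the neuron marker miR-124 had 2 of 2, while 0 of 8 probes for the ovary markers miR-989, miR-318 and miR-994 were above background in any sample.

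Among the 18 probes, 9 were above background in at least 3 of the 4 samples of some group and were tested with the rest of the array, 272 probes in all. Each of the 9 met that requirement in a group of males, so the female samples were not what let them in. However, dme-miR-2500, dsi-miR-965 and dsi-mir-314-5p met it in D. simulans groups only, and dme-mir-314-5p in D. melanogaster groups only. The requirement itself therefore leans towards a species difference for these probes, in females too. The sequences of 8 of them, as the deposited files give the target of each probe, are shown here because the 3 species differ in which of these near-identical RNAs gave a signal. Capitals mark the seed, bases 2 to 8. The probe named here dme-miR-289 carries the D. erecta name in the files and is listed under its D. melanogaster, D. simulans and D. yakuba names.
dme-miR-2500: gGAUUUUGuguguggaccucag
dme-miR-956: uUUCGAGAccacucuaauccauu
dme-miR-289: uAAAUAUUuaaguggagccugcgacu
dsi-miR-965: gGGGUGAAacuguacguuauaug
dme-mir-965-5p: gGGGUAAAacuguacguuauaug
dme-mir-314-5p: aACUUGUGuggcuucgaacuuacc
dsi-mir-314-5p: aACUUGUGuggcuucgaauguac

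The eighth, dan-miR-289, is the dme-miR-289 target with 9 further bases at its 3′ end, in capitals here.
dan-miR-289: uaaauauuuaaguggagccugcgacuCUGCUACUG

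Both miR-314 probes share their seed, as do both miR-289 probes, whereas the 2 probes for the 5p arm of miR-965 do not. Counted from 1 at the 5′ end, dme-mir-965-5p and dsi-miR-965 differ by A6G, inside the seed, over 23 bases. The miR-314 pair differs by C19U and U20G, outside the seed, and the D. melanogaster target has 1 more base at its 3′ end. Aligned the same way, these pairs read as follows, with the differing bases in capitals.
dme-mir-965-5p: gggguAaaacuguacguuauaug
dsi-miR-965: gggguGaaacuguacguuauaug
dme-mir-314-5p: aacuuguguggcuucgaaCUuacC
dsi-mir-314-5p: aacuuguguggcuucgaaUGuac

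In RefSeq's D. melanogaster Release 6 annotation, mir-2500, mir-314, mir-956 and mir-289 lie on chromosome arm 3L, mir-965 on 2L and mir-986 on 2R. No other annotated gene lies between mir-314 and mir-956. The mir-965 gene overlaps kis, which encodes the chromatin remodeller kismet, mir-289 overlaps bru3, mir-2500 overlaps CG3764 and mir-986 overlaps Cyp4e2. As background, miR-965 acts in the histoblasts that build the adult abdomen during metamorphosis, and miR-289 and miR-314 were among the miRNAs found to respond to activity at the larval nerve-muscle synapse. miR-956 has been linked to the control of virus replication in flies.

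The dme-miR-2500 and dme-miR-956 probes are listed for D. melanogaster alone. The dsi-miR-965 probe is listed for D. simulans alone, dme-miR-986 for D. melanogaster and D. simulans, and dme-miR-289 for all 3 species. The 2 miR-314-5p probes and dme-mir-965-5p are custom probes with no entry in any species column. Among the probes for these 6 genes, the D. yakuba column names only dme-miR-289 and the 3p arm of miR-314. A probe can also give less signal where the RNA of a species differs from its target in sequence. For miR-2500 and miR-956 in D. simulans and D. yakuba, and miR-986 in D. yakuba, no sequence was compared with the probe. There a poorer match and less RNA cannot be told apart.

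miR-2500 was above background in all 16 D. simulans samples and in 0 of 48 D. melanogaster and 0 of 8 D. yakuba samples, although its probe is listed for D. melanogaster only. In D. simulans males the log2 level of dme-miR-2500 was 9.01, 8.29, 8.14 and 8.35 at the earlier stage and 8.50, 8.36, 8.80 and 8.30 at PF. The 16 D. melanogaster males lay between 5.82 and 6.15 at the earlier stage, with a median of 5.99, and between 5.89 and 6.36 at PF, with a median of 6.02. D. yakuba males read 5.88, 5.80, 5.96 and 5.87 at the earlier stage and 5.80, 5.88, 6.04 and 5.84 at PF. All D. simulans males were above all males of the other 2 species at both stages. With 2 SD above the empty spots as the limit, 1 of 48 D. melanogaster samples passed, and with 5 SD none did, while all 16 D. simulans samples passed at either.

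Females, which took no part in the selection of the genes, showed the same split. However, the probe met the requirement for testing in D. simulans groups only, which leans the female test towards a difference. D. simulans females read 8.78, 8.58, 8.58 and 8.51 for dme-miR-2500 at the earlier stage and 9.07, 8.61, 8.57 and 8.64 at PF. The 8 D. melanogaster females ran from 5.86 to 5.96 (median 5.91) and from 5.82 to 6.03 (median 5.90). The groups did not overlap. Where one side is below background in every sample, the fold is given as a bound, in which each dim sample is given whichever is higher, its own signal or the weakest signal above background on its channel. On that footing dme-miR-2500 was at least 5.20-fold higher in D. simulans females at the earlier stage and at least 6.43-fold higher at PF. The fitted log2 differences were 2.70 ± 0.10 (SE) and 2.81 ± 0.10, with limma adjusted p = 9.11e-31 and 1.17e-31 (4 against 8 samples). Among all 272 probes, 36.4% passed this test at the earlier stage and 29% at PF. On the one slide that held females of both species, the differences from Zimbabwe-109 were 2.69 and 2.78 (4 against 2 samples).

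The level of dme-miR-2500 was compared between the stages in D. simulans. The fitted change from the earlier stage to PF was 0.11 ± 0.08 in D. simulans females and did not pass (95% interval -0.06 to 0.28, limma adjusted p = 0.348, 4 arrays). In D. simulans males it was 0.04 ± 0.08, and 0.23 without replicate 1. The other strand of the hairpin, probed as dme-miR-2500*, was above background in no sample of any species.

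For miR-965 the D. simulans form of the 5p arm was found in D. simulans and not in the other species. The dsi-miR-965 probe was above background in 16 of 16 D. simulans samples, 1 of 48 D. melanogaster samples (a Zimbabwe-109 female at the earlier stage) and 0 of 8 D. yakuba samples. D. simulans males had log2 levels of 7.75, 7.27, 7.06 and 7.0 at the earlier stage and 7.47, 7.37, 7.22 and 7.12 at PF. The 16 D. melanogaster males ran from 5.87 to 6.11 (median 5.97) and from 5.90 to 6.12 (median 6.04), and D. yakuba males reached at most 6.04 and 6.30. As for miR-2500, the D. simulans males did not overlap with either.

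D. simulans females read 7.62, 7.53, 7.38 and 7.36 for dsi-miR-965 at the earlier stage and 7.91, 7.51, 7.75 and 7.42 at PF. The D. melanogaster females lay between 5.94 and 6.18 and between 5.85 and 6.28. Again no D. melanogaster female reached the lowest D. simulans one, and this probe too met the requirement for testing in D. simulans groups only. The fitted difference was 1.45 ± 0.09 at the earlier stage, with 1 of 8 D. melanogaster females above background (limma adjusted p = 3.95e-21), and 1.60 ± 0.09 at PF, at least 2.88-fold (limma adjusted p = 3.63e-23, 4 against 8 samples). Within the slide shared with Zimbabwe-109 these were 1.34 and 1.49.

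**Figure D1:**
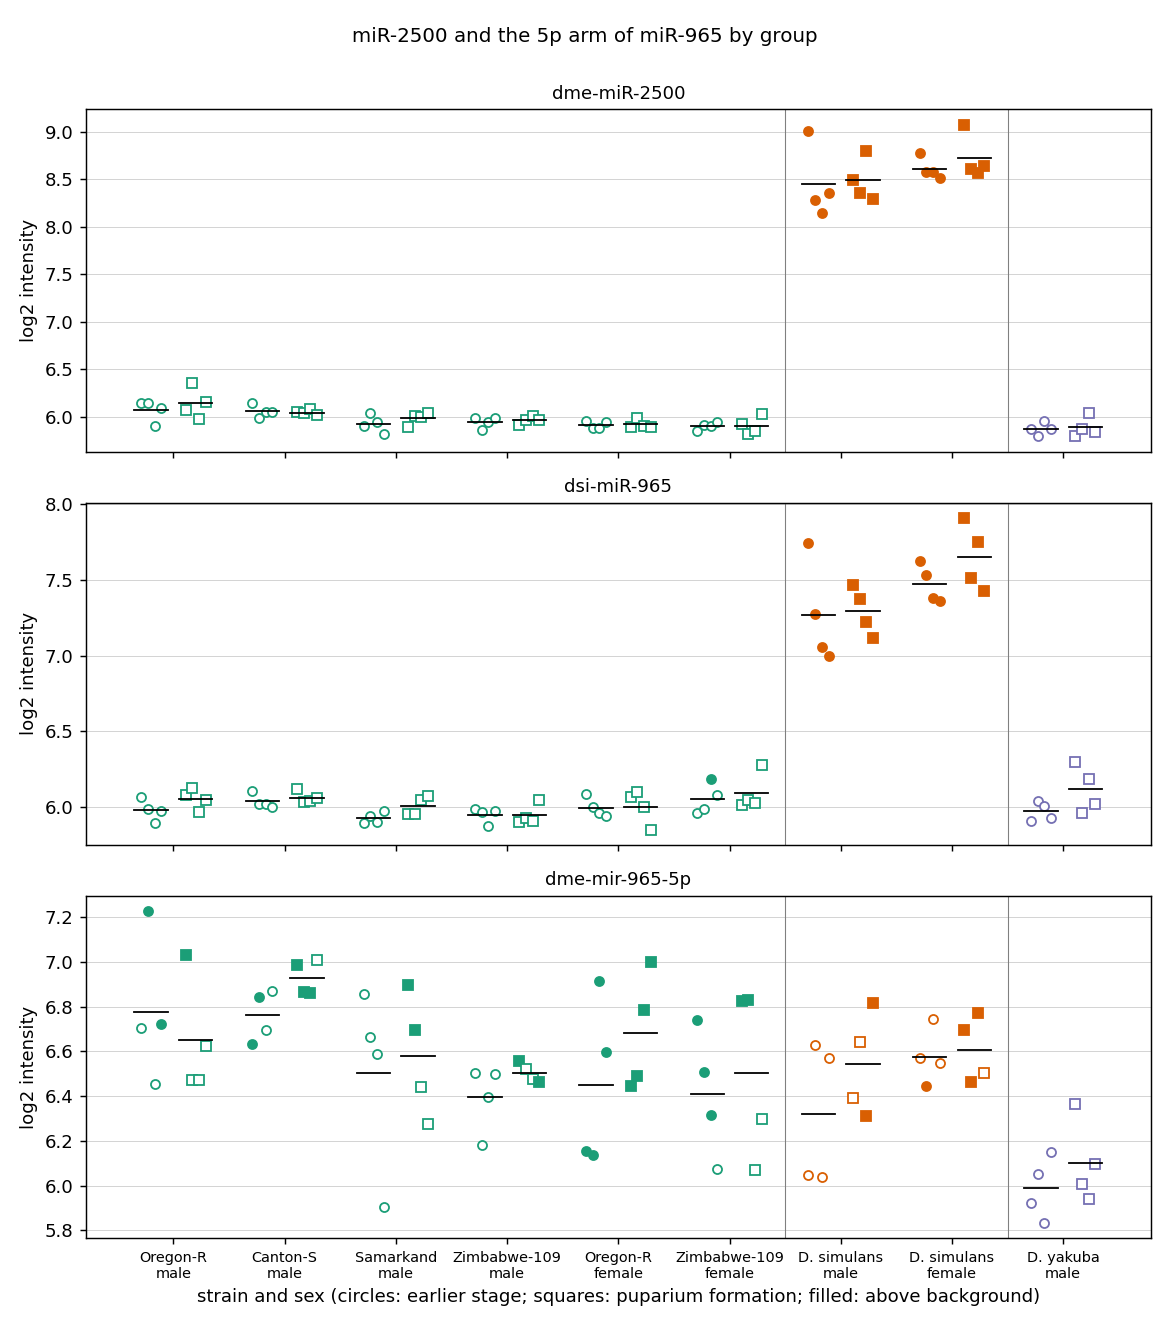
Log2 intensity (y axis) of dme-miR-2500, dsi-miR-965 and dme-mir-965-5p in the 4 samples of each strain and sex (x axis), with circles for the earlier stage, squares for puparium formation, filled symbols for samples above background, lines for group means, and green, orange and purple for D. melanogaster, D. simulans and D. yakuba. For the first 2 probes all 16 D. simulans samples sit above every other sample, and for dme-mir-965-5p D. melanogaster and D. simulans overlap.

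The probe for the D. melanogaster form, dme-mir-965-5p, which differs at 1 base, behaved otherwise. It was above background in 25 of 48 D. melanogaster samples, 6 of 16 D. simulans samples and 0 of 8 D. yakuba samples, and it was dim in all of them. In D. melanogaster males its log2 level ran from 5.91 to 7.23 at the earlier stage (median 6.65) and from 6.27 to 7.03 at PF (median 6.59). D. simulans males read 6.05, 6.63, 6.04 and 6.57, then 6.39, 6.64, 6.31 and 6.82, all within the D. melanogaster range at both stages. Between females of the 2 species the difference in dme-mir-965-5p was 0.15 ± 0.15 at the earlier stage (95% interval -0.16 to 0.45) and 0.01 ± 0.15 at PF (-0.29 to 0.32). Neither passed (limma adjusted p = 0.494 and 0.958, 4 against 8 samples). Within the shared slide D. simulans females were higher by 0.38 and 0.42 (adjusted p = 0.034 and 0.0267), so this call depends on the slides used.

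Between stages, in D. simulans females dsi-miR-965 was higher at PF by 0.17 ± 0.07 (limma adjusted p = 0.049, 3 of 4 arrays), a call that was lost without replicate 1 (0.14, adjusted p = 0.222) or without replicate 3 (0.11, adjusted p = 0.384), and in 8 of 11 other processing settings, with adjusted p up to 0.998. The other 3 changes of these probes in females did not pass. The other 5 probes for miR-965 were not tested. The 3p arm, dme-miR-965, which the D. simulans column lists as dsi-miR-965*, was above background in 2 of 48 D. melanogaster samples and in no sample of the other species. The related dpu-miR-965 was above background in 3 D. melanogaster samples, and aae-miR-965, bmo-miR-965 and dps-miR-965* in none. The last differs from dsi-miR-965 by C6G and C19A and from dme-mir-965-5p by C6A and C19A.

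The 2 forms of miR-314-5p divided the species reciprocally at the earlier stage. The dme-mir-314-5p probe was above background in 23 of 48 D. melanogaster samples and in 0 of 16 D. simulans and 0 of 8 D. yakuba samples. The dsi-mir-314-5p probe was above background in 1 of 48 D. melanogaster samples, 7 of 16 D. simulans samples and 2 of 8 D. yakuba samples. At 2 SD above the empty spots the counts for dsi-mir-314-5p were 1, 8 and 5. At 5 SD they were 1, 1 and 1, so detection of this dim probe did not divide the species at that limit, where the counts for dme-mir-314-5p were 18, 0 and 0. The 3p arm, listed for all 3 species as miR-314, was above background in no sample.

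In males at the earlier stage dme-mir-314-5p read between 5.87 and 8.36 in D. melanogaster, with a median of 6.99, and 11 of 16 samples were above background. D. simulans males read 5.94, 6.04, 6.08 and 6.08 and D. yakuba males 5.92, 5.94, 5.83 and 6.03, so that only the lowest D. melanogaster male, of Samarkand, reached into their range. For dsi-mir-314-5p the order was the opposite. D. simulans males read 6.84, 6.68, 7.43 and 6.84 and D. yakuba males 6.72, 6.81, 6.99 and 6.77, all above the D. melanogaster males, which ran from 5.84 to 6.20 (median 6.02). At PF most of this signal was gone, with 2 of 16 D. melanogaster males above background for dme-mir-314-5p, 1 of 4 D. simulans males for dsi-mir-314-5p, and 0 of 4 D. yakuba males.

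In females at the earlier stage dme-mir-314-5p was at least 1.44-fold higher in D. melanogaster than in D. simulans, with a fitted D. simulans minus D. melanogaster difference of -1.27 ± 0.20 (limma adjusted p = 2.44e-06, 4 against 8 samples). The D. simulans females read 5.95, 5.89, 5.94 and 5.89, all below the lowest D. melanogaster female at 6.53. This probe met the requirement for testing in D. melanogaster groups only. The 4 Zimbabwe-109 females divided by slide: those on the slide shared with Oregon-R females read 8.14 and 7.98, and those on the slide shared with D. simulans females read 6.76 and 6.59. Within the latter slide the difference was -0.76, and with slide as a fixed block it was -0.30 (adjusted p = 0.256). At PF the difference was -0.37 ± 0.20 and did not pass (adjusted p = 0.166, 95% interval -0.78 to 0.04), and with slide as a fixed block it turned to 0.60 (adjusted p = 0.0245). Its size in females therefore depends on the treatment of slides, whose part in it was not tested further.

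For dsi-mir-314-5p, D. simulans females at the earlier stage read 6.63, 6.46, 6.78 and 6.33, against 6.01 to 6.37 in D. melanogaster females. The fitted difference was 0.44 ± 0.09 (limma adjusted p = 4.7e-05, 4 against 8 samples), with 1 of 8 D. melanogaster females above background. Only the highest D. melanogaster female, from Zimbabwe-109, exceeded the lowest D. simulans one. This probe met the requirement for testing in D. simulans groups only. The call was lost within the shared slide (0.26, adjusted p = 0.0717), without normalization between arrays (0.21, 0.0892) and in the authors' table (adjusted p = 0.494). At PF it was 0.17 ± 0.09 and did not pass (adjusted p = 0.138).

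**Figure D2:**
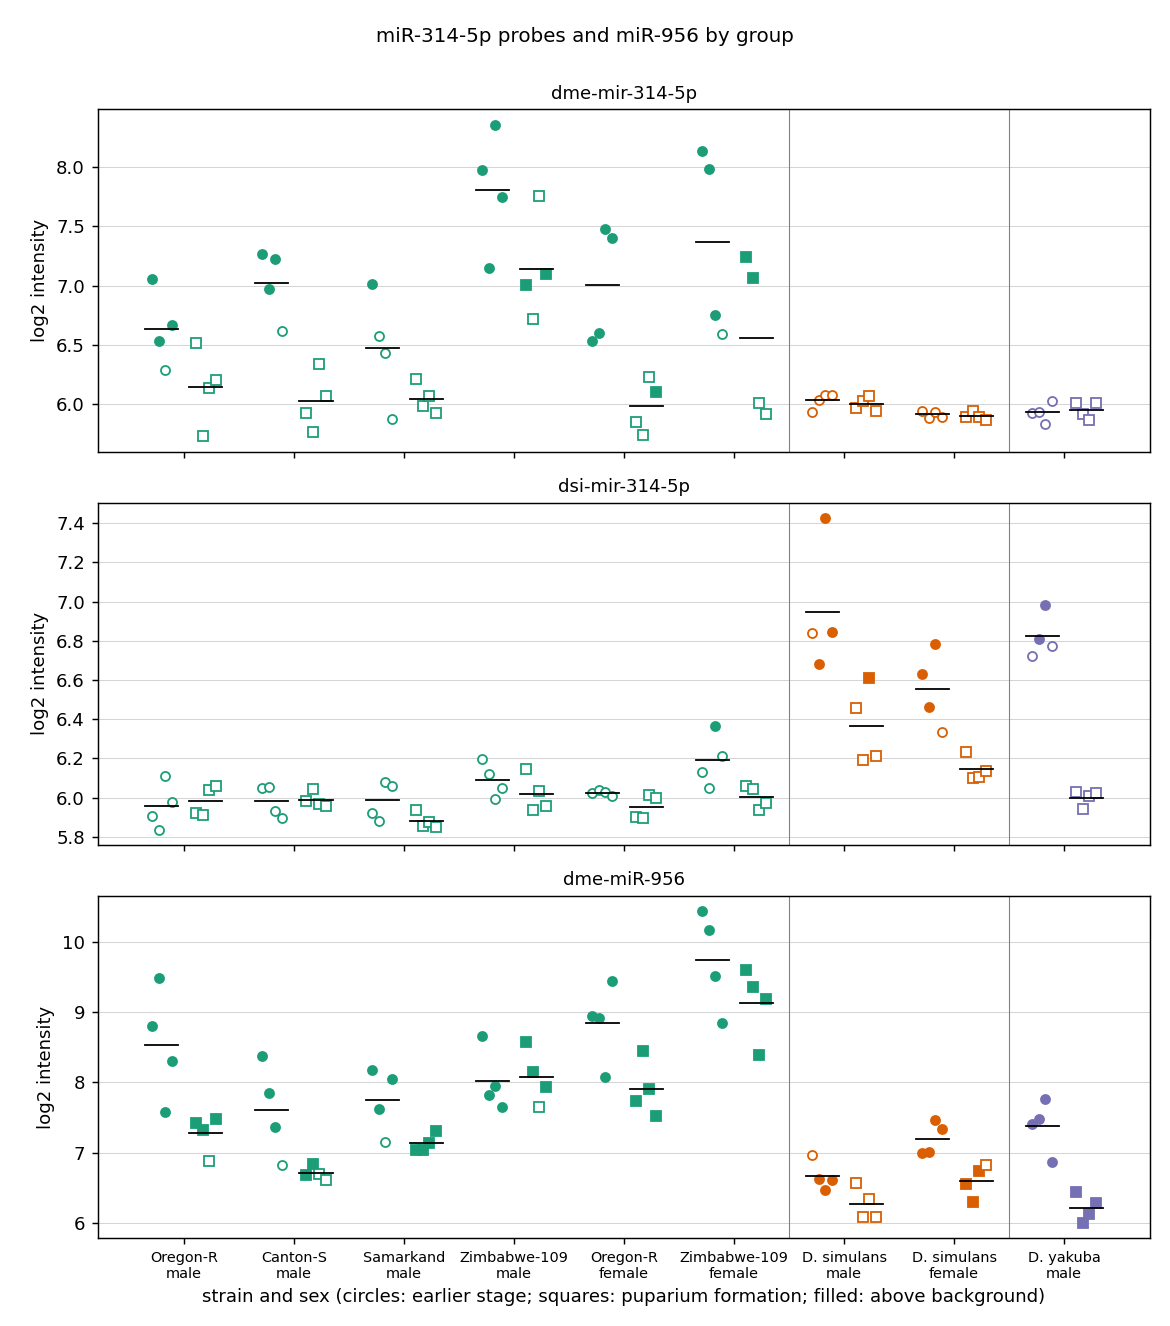
Log2 intensity (y axis) of dme-mir-314-5p, dsi-mir-314-5p and dme-miR-956 in the 4 samples of each strain and sex (x axis), with symbols, lines and colours as in the plot of miR-2500 and miR-965. At the earlier stage dme-mir-314-5p is above background in D. melanogaster only and dsi-mir-314-5p in D. simulans and D. yakuba and 1 D. melanogaster sample, and both fall at PF where they were present.

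In females both forms of miR-314-5p fell towards PF. The change of dme-mir-314-5p was -0.92 ± 0.12 in D. melanogaster females (lower in 8 of 8 arrays, limma adjusted p = 8.97e-10), and that of dsi-mir-314-5p was -0.41 ± 0.07 in D. simulans females (4 of 4 arrays, limma adjusted p = 4.33e-06), which did not pass in the authors' table (adjusted p = 0.189). In males, as a description, dme-mir-314-5p changed by -0.64 ± 0.08 in D. melanogaster (lower in 15 of 16 arrays), and dsi-mir-314-5p by -0.58 ± 0.07 in D. simulans and -0.82 ± 0.07 in D. yakuba (4 of 4 arrays each). Since it was above background in no D. yakuba male and no D. simulans female at PF, the folds there are bounds, at least 1.66-fold and at least 1.01-fold lower. A change of dsi-mir-314-5p of -0.13 ± 0.05 in D. melanogaster females (limma adjusted p = 0.0168) rested on samples of which 1 of 16 was above background, and it was lost in 5 of 10 other processing settings.

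Strains of D. melanogaster differed in dme-mir-314-5p, although only Samarkand and Zimbabwe-109 males shared a slide. Zimbabwe-109 males had the highest mean at both stages, 7.81 ± 0.51 (SD, n = 4) and 7.14 ± 0.44. At the earlier stage they were followed by Canton-S at 7.02 ± 0.30, Oregon-R at 6.64 ± 0.32 and Samarkand at 6.47 ± 0.47, and each neighbour in that order overlapped with the next. limma's F test among the 4 strains gave adjusted p = 2.01e-05 at the earlier stage and 2.46e-04 at PF, where 32% and 28.3% of all 272 probes passed. In the authors' table dme-mir-314-5p passed at neither stage (adjusted p = 0.359 and 0.0846), and with that table centred it passed at PF alone (0.0144). On the one slide that held both, Zimbabwe-109 males exceeded Samarkand males by 1.67 and 1.16 (3 against 2 samples).

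miR-956, whose gene neighbours that of miR-314, was above background in 42 of 48 D. melanogaster, 10 of 16 D. simulans and 8 of 8 D. yakuba samples, although its probe is listed for D. melanogaster alone. At 5 SD above the empty spots the counts were 35, 5 and 3. In D. melanogaster males its log2 level ran from 6.83 to 9.48 at the earlier stage (median 7.89) and from 6.61 to 8.57 at PF (median 7.22). D. simulans males read 6.96, 6.62, 6.47 and 6.60, then 6.57, 6.09, 6.34 and 6.09. D. yakuba males read 7.41, 7.48, 7.76 and 6.87, then 6.45, 6.00, 6.13 and 6.28, with those at PF near the level of probes with no signal. The D. simulans and D. yakuba males lay below all D. melanogaster males at PF, while at the earlier stage both overlapped with the lower end of their range.

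D. simulans females read 7.0, 7.01, 7.46 and 7.33 for dme-miR-956 at the earlier stage and 6.56, 6.29, 6.74 and 6.82 at PF. D. melanogaster females ran from 8.08 to 10.43 (median 9.19) and from 7.52 to 9.61 (median 8.42), so the groups did not overlap. The signal of dme-miR-956 was lower in D. simulans females by a log2 difference of -2.09 ± 0.28, or 4.26-fold, at the earlier stage (limma adjusted p = 6.62e-08) and by -1.91 ± 0.28, or 3.77-fold, at PF (limma adjusted p = 3.56e-07, 4 against 8 samples). Within the slide shared with Zimbabwe-109 the differences were -1.98 and -2.18. Since the D. simulans sequence was not compared with this probe, less RNA and a poorer match cannot be told apart.

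From the earlier stage to PF dme-miR-956 fell in females. The change was -0.77 ± 0.16 in D. melanogaster females (lower in 7 of 8 arrays, limma adjusted p = 3.12e-05). In D. simulans females the change was -0.60 ± 0.23 (4 of 4 arrays, limma adjusted p = 0.0358), and this call was lost when any one of the 4 replicates was left out, with values from -0.67 to -0.54. In males, as a description, it was -0.68 ± 0.12 in D. melanogaster (lower in 14 of 16 arrays), -1.17 ± 0.23 in D. yakuba (4 of 4) and -0.39 ± 0.23 in D. simulans (4 of 4), where 0 of 4 samples were above background at PF. The difference between the stage changes of D. simulans and D. melanogaster females was 0.18 ± 0.28 (limma adjusted p = 0.665). For that test, added after the data were seen, 26.1% of all 272 probes passed.

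Among D. melanogaster males, dme-miR-956 at PF was highest in Zimbabwe-109 (8.08 ± 0.39, SD, n = 4) and lowest in Canton-S (6.70 ± 0.10), with limma's F test at adjusted p = 0.00759. The call for dme-miR-956 was lost without replicate 1 of Zimbabwe-109 (adjusted p = 0.0517) and with slide as a fixed block (0.0646). At the earlier stage the strains, from 7.60 ± 0.66 in Canton-S to 8.54 ± 0.80 in Oregon-R, did not pass (adjusted p = 0.0807), and they passed without Oregon-R replicate 4 (adjusted p = 0.00829) or Canton-S replicate 1 (0.026). Among females on one slide, Zimbabwe-109 exceeded Oregon-R by 1.45 and 1.58 at the 2 stages (2 against 4 samples).

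miR-289 was above background in all 3 species, and in D. simulans females it fell at PF. Its probe, der-miR-289 in the files, was above background in 46 of 48 D. melanogaster, 13 of 16 D. simulans and 8 of 8 D. yakuba samples. At the earlier stage the log2 level of dme-miR-289 was 8.14, 8.47, 7.61 and 8.13 in D. simulans males, and 7.76, 8.06, 8.23 and 7.94 in D. yakuba males, both within the D. melanogaster range of 7.40 to 10.02 (median 8.13). At PF D. simulans males read 6.54, 6.05, 6.80 and 6.76, below every D. melanogaster male, which ran from 6.90 to 10.09 (median 8.66). D. yakuba males at PF read 7.99, 8.05, 8.10 and 7.88.

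The stage change of dme-miR-289 (der-miR-289) was -1.73 ± 0.25 in D. simulans females, 3.32-fold lower at PF (4 of 4 arrays, limma adjusted p = 4.65e-08). In D. simulans males, whose levels at PF are among those on which miR-289 was selected, it was -1.55 ± 0.25 (4 of 4 arrays). In D. melanogaster females it rose by 0.69 ± 0.17, or 1.61-fold (6 of 8 arrays, limma adjusted p = 3.62e-04). That rise was an average over unlike strains: the mean went from 8.04 to 9.56 in Oregon-R females and from 7.97 to 7.82 in Zimbabwe-109 females. Likewise in males the mean was higher at PF in Oregon-R (8.11 and 8.84) and Canton-S (8.04 and 9.30) and lower in Samarkand (9.55 and 8.62) and Zimbabwe-109 (8.27 and 7.32), a difference between strains that was not tested. Over all D. melanogaster males the change was 0.02 ± 0.12 (higher in 8 of 16 arrays), and in D. yakuba males 0.01 ± 0.25 (higher in 1 of 4 arrays).

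D. simulans females read 8.94, 9.24, 8.33 and 9.11 for dme-miR-289 (der-miR-289) at the earlier stage, then 7.22, 7.56, 7.08 and 6.84 at PF. D. melanogaster females ran from 7.18 to 9.27 (median 7.99) and from 7.49 to 10.02 (median 8.62), so the groups overlapped at both stages. The D. simulans minus D. melanogaster difference was 0.90 ± 0.30 at the earlier stage (limma adjusted p = 0.0147) and -1.52 ± 0.30 at PF (limma adjusted p = 9.73e-05, 4 against 8 samples). The stage change in D. simulans females differed from that in D. melanogaster females by -2.42 ± 0.30 (limma adjusted p = 8.56e-09). The higher level at the earlier stage was not stable: it was lost without D. simulans replicate 2 (0.77, adjusted p = 0.0667) or 4 (0.81, adjusted p = 0.0561), and its sign turned without normalization between arrays (-0.36) and in the authors' table (-0.45). At PF the difference within the shared slide was -0.73 (adjusted p = 0.0771). The call at PF was lost in 2 settings, with values up to -0.65 and limma adjusted p up to 0.167. The D. melanogaster mean at PF joins unlike strains, 9.56 in Oregon-R and 7.82 in Zimbabwe-109 females, beside 7.17 in D. simulans females.

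**Figure D3:**
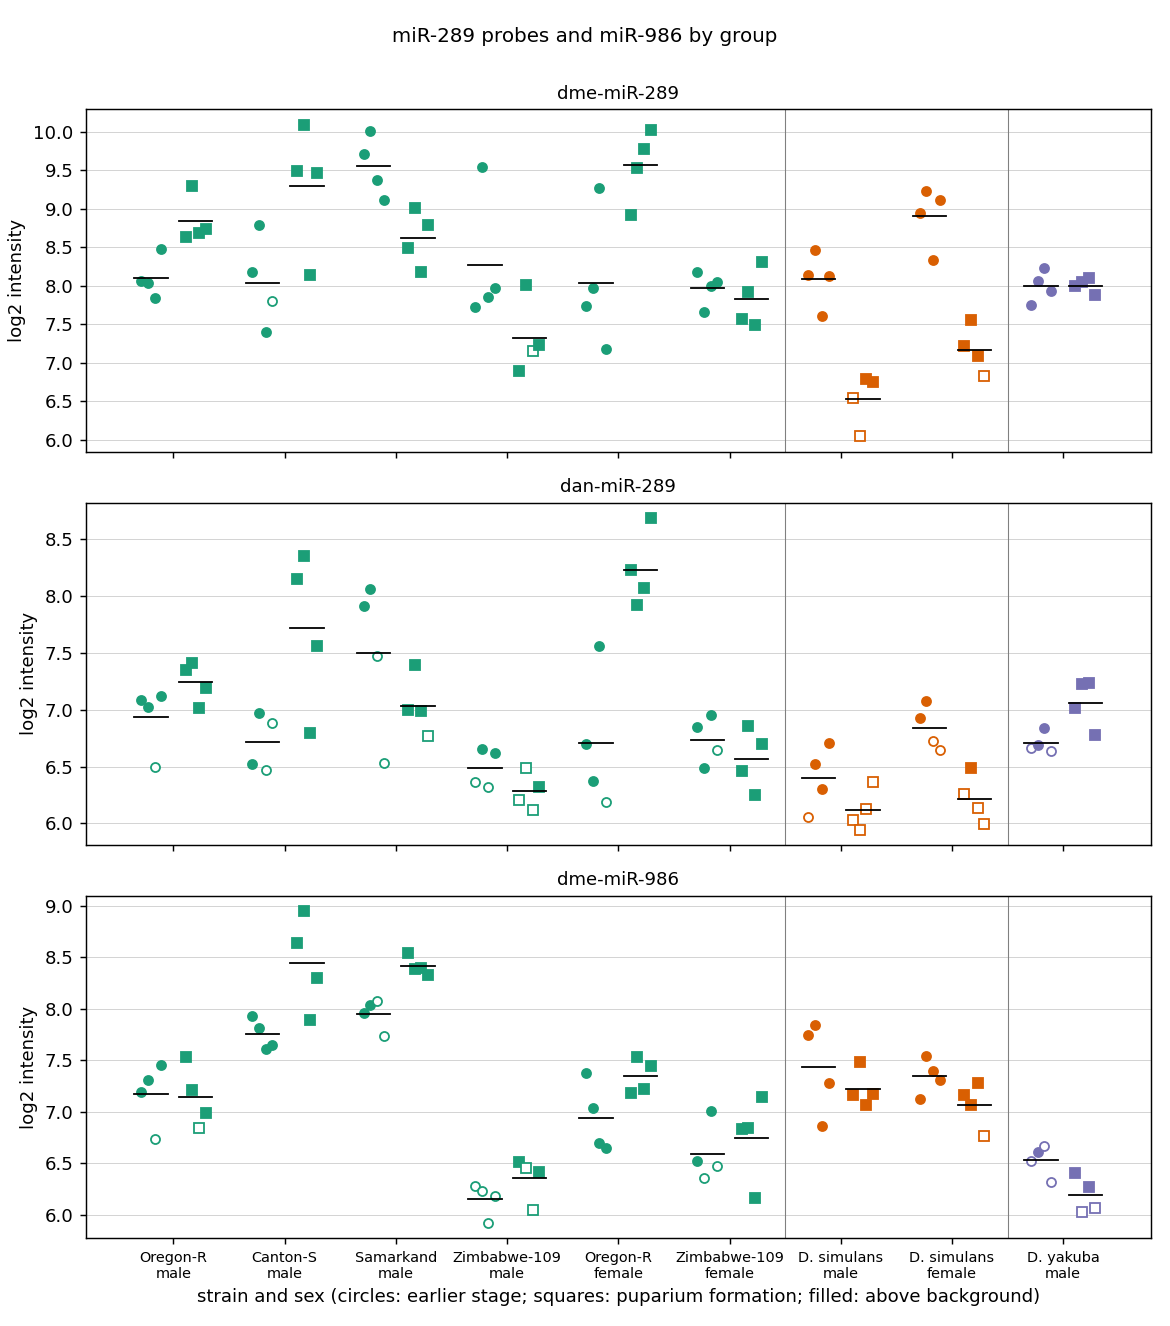
Log2 intensity (y axis) of dme-miR-289, dan-miR-289 and dme-miR-986 in the 4 samples of each strain and sex (x axis), with symbols, lines and colours as in the plot of miR-2500 and miR-965. In D. simulans of both sexes the squares (PF) of dme-miR-289 sit below the circles (earlier stage), and dme-miR-986 is highest in Canton-S and Samarkand males and low in Zimbabwe-109 and D. yakuba males.

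Strains of D. melanogaster also differed in miR-289. At the earlier stage Samarkand males stood highest with 9.55 ± 0.39 (SD, n = 4), then Zimbabwe-109 (8.27 ± 0.85), Oregon-R (8.11 ± 0.27) and Canton-S (8.04 ± 0.59), and of these 3 strains only 1 Zimbabwe-109 male, at 9.54, reached the Samarkand range (limma's F test, adjusted p = 5.91e-04). At PF Canton-S stood highest with 9.30 ± 0.82, with Oregon-R at 8.84 ± 0.31, Samarkand at 8.62 ± 0.36 and Zimbabwe-109 lowest at 7.32 ± 0.48, below every male of the other 3 strains (limma's F test, adjusted p = 6.72e-05). With slide as a fixed block neither passed (adjusted p = 0.17 and 0.146). The longer dan-miR-289 probe, which contains the whole dme-miR-289 target, gave dimmer values. It was above background in 35 of 48 D. melanogaster, 6 of 16 D. simulans and 6 of 8 D. yakuba samples. Its change was -0.63 ± 0.18 in D. simulans females (lower in 4 of 4 arrays, limma adjusted p = 0.00453), with 2 of 4 samples above background at the earlier stage and 1 of 4 at PF. It rose by 0.68 ± 0.13 in D. melanogaster females (6 of 8 arrays, 5.77e-06). That average too joined unlike strains, with means from 6.70 to 8.23 in Oregon-R and from 6.73 to 6.57 in Zimbabwe-109 females. The dan-miR-289 signal was lower in D. simulans than in D. melanogaster females at PF by -1.18 ± 0.22 (6.06e-05). Within the shared slide that last difference was -0.25 (adjusted p = 0.27) and against Zimbabwe-109 alone -0.35 (0.349), and neither passed. Since one target contains the other, these are not independent readings.

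miR-986, whose sequence is not shown here, differed among D. melanogaster strains at both stages, and D. simulans males lay within the range of those strains. Its probe was above background in 36 of 48 D. melanogaster, 15 of 16 D. simulans and 3 of 8 D. yakuba samples. Males of Samarkand read 7.96, 8.03, 8.08 and 7.74 for dme-miR-986 at the earlier stage, and those of Canton-S 7.93, 7.81, 7.61 and 7.65. Oregon-R males were lower at 7.19, 7.31, 6.74 and 7.46, and Zimbabwe-109 males lowest at 6.27, 6.23, 5.92 and 6.18, with 0 of 4 above background. In Samarkand only 2 of these 4 samples passed the limit for background, which is set per array and dye. No value of Canton-S or Samarkand overlapped with Oregon-R or Zimbabwe-109, and those last 2 did not overlap with each other.

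At PF the order was kept in part, with Canton-S at 8.44 ± 0.45 (SD, n = 4) and Samarkand at 8.41 ± 0.09, which overlapped, then Oregon-R at 7.14 ± 0.30 and Zimbabwe-109 at 6.35 ± 0.21. limma's F test gave adjusted p = 5.09e-10 at the earlier stage and 2.41e-13 at PF for dme-miR-986. With slide as a fixed block both passed too, although of these strains only Samarkand and Zimbabwe-109 shared a slide. In the authors' table the one at PF did not pass (adjusted p = 0.103). D. simulans males lay between the strains with 7.75, 7.85, 6.86 and 7.28, then 7.16, 7.48, 7.07 and 7.17. D. yakuba males were near the background with 6.52, 6.61, 6.67 and 6.32, then 6.40, 6.03, 6.27 and 6.07.

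In females dme-miR-986 was higher in D. simulans at the earlier stage by 0.58 ± 0.18, or 1.49-fold (limma adjusted p = 0.0112, 4 against 8 samples), and the groups overlapped. Without D. simulans replicate 2 the value was 0.51 (adjusted p = 0.0513), and its sign turned without normalization between arrays (-0.37) and in the authors' table (-0.34). Of 16 other settings, 5 lost the call and these 2 turned the sign, with limma adjusted p up to 0.863. At PF the difference was 0.02 ± 0.18 (95% interval -0.35 to 0.39, adjusted p = 0.949). From the earlier stage to PF dme-miR-986 was higher by 0.28 ± 0.11 in D. melanogaster females (6 of 8 arrays, limma adjusted p = 0.016). That call was lost without any one of 4 of the 8 replicates, with values from 0.20 to 0.25, and in 7 of 11 other processing settings, with adjusted p up to 0.867. In D. simulans females the change was -0.28 ± 0.15 and did not pass (adjusted p = 0.152). In males, as a description, it was 0.33 ± 0.08 in D. melanogaster (higher in 14 of 16 arrays), -0.21 ± 0.15 in D. simulans and -0.34 ± 0.15 in D. yakuba. The stage change of D. simulans females differed from that of D. melanogaster females by -0.56 ± 0.18 (limma adjusted p = 0.0175). The other strand was probed as dsi-miR-986* and dps-miR-986*, which were above background in no sample.

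**Figure D4:**
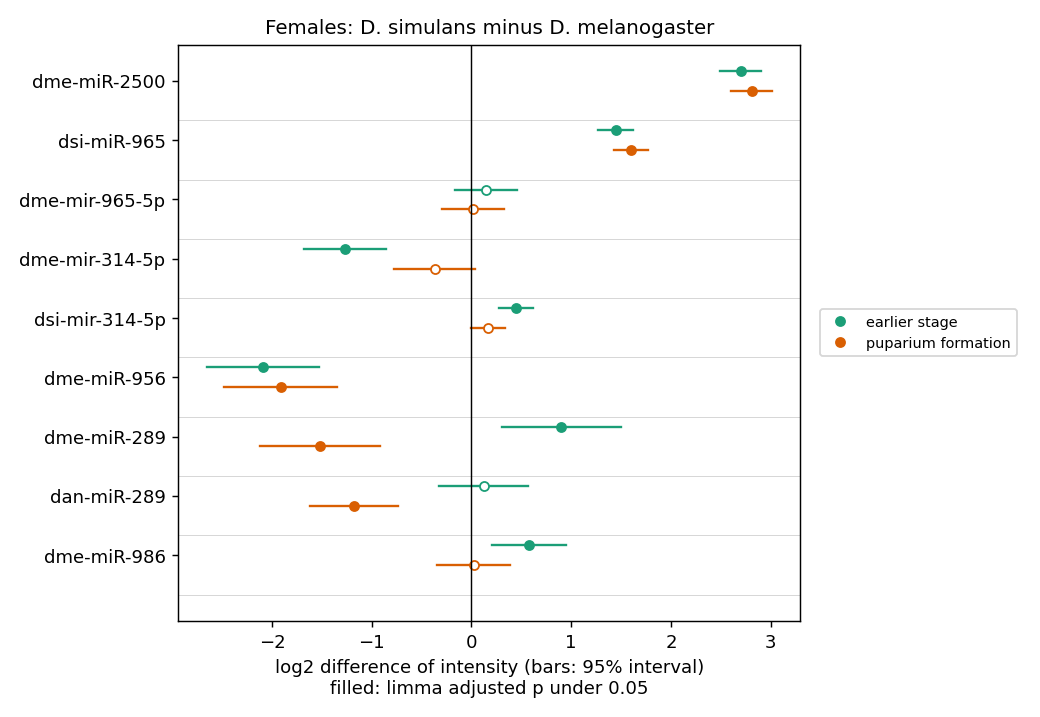
Log2 difference of D. simulans minus D. melanogaster females (x axis, with 95% intervals) for the 9 tested probes (y axis) at each stage, with filled points where limma's adjusted p passed 0.05. dme-miR-2500 and dsi-miR-965 lie right of 0 and dme-miR-956 left of it at both stages, while dme-miR-289 changes side.

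Across the 9 tested probes, 7 passed between females of the 2 species at the earlier stage, 5 higher in D. simulans and 2 lower, where 36.4% of all probes did. At PF 5 passed, 2 higher and 3 lower, against 29%. The median difference of the 9 was 0.44 and 0.01, beside 0.06 and -0.01 over all 272 probes. With these genes selected on the same species in males, and some probes let in by groups of a single species, the counts are a description. The split over all probes, 52 higher and 47 lower at the earlier stage and 30 and 49 at PF, turned to 4 and 123, then 5 and 135, without normalization between arrays, where the median moved to -0.48 and -0.51. Relative to that median the difference in dme-miR-289 (der-miR-289) at the earlier stage was 0.84 as reported and 0.12 without that step, and in dme-miR-986 0.52 and 0.11. For the stage change, where the male counts too are a description, 3 of 9 passed in D. melanogaster males (67.3% of all probes), 6 in D. melanogaster females (75.4%), 2 in D. simulans males (44.1%), 5 in D. simulans females (38.2%) and 2 in D. yakuba males (45.2%). The medians over all probes were 0.13, 0.19, 0.15, 0.04 and 0.08 in that order, all above 0, while dme-miR-956 and the miR-314-5p forms fell.

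**Figure D5:**
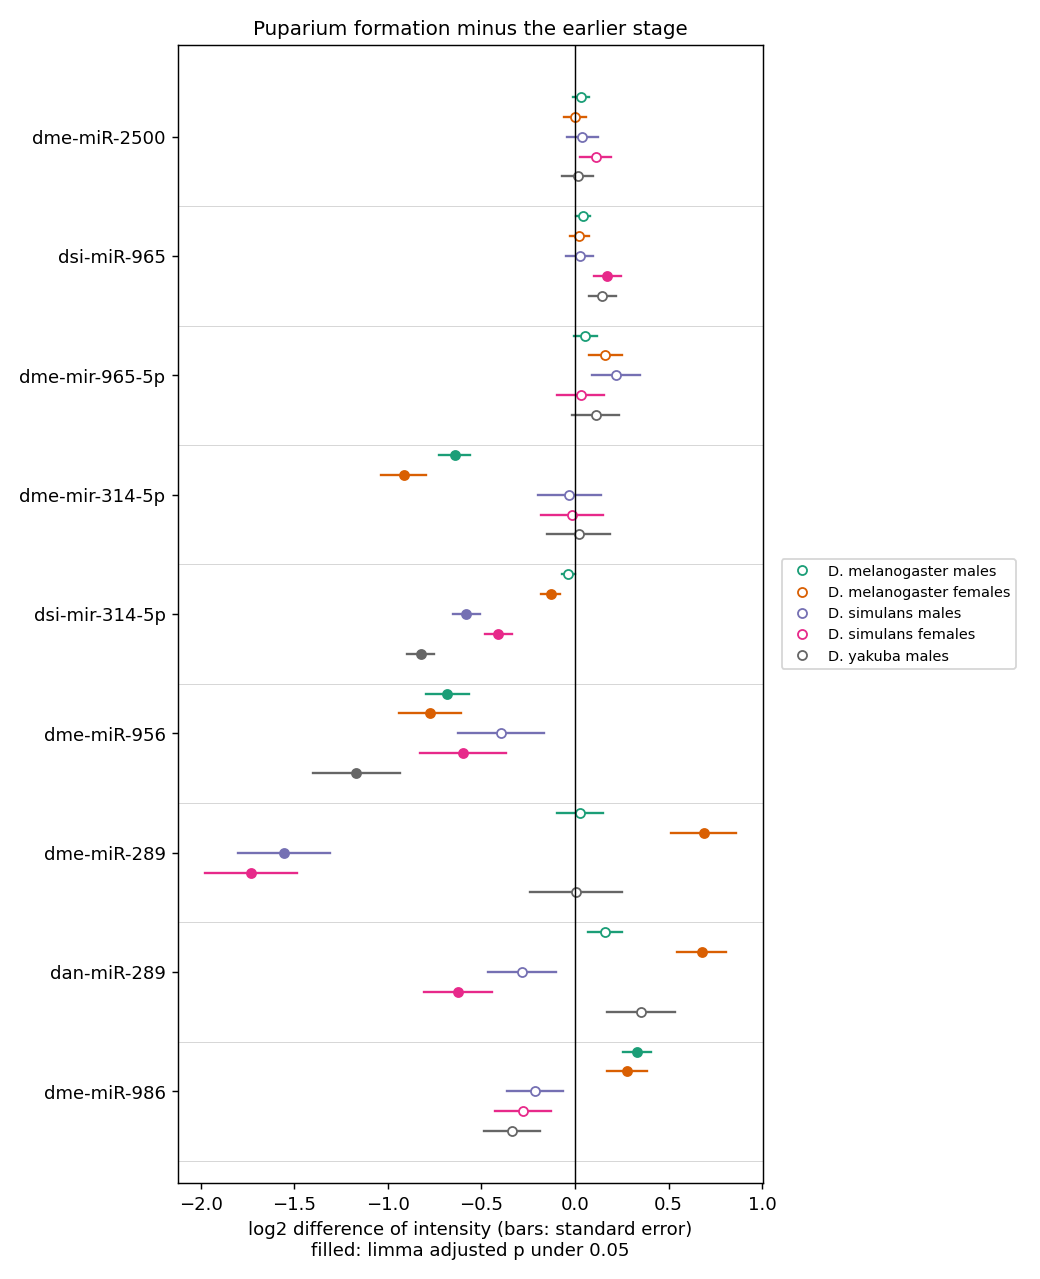
Log2 difference of puparium formation minus the earlier stage (x axis, bars of 1 standard error) for the 9 tested probes (y axis) in each species and sex, with filled points where limma's adjusted p passed 0.05, the males being a description. dme-miR-956 lies left of 0 in all sets and each miR-314-5p form in the sets where it was above background, and dme-miR-289 lies at -1.55 and -1.73 in D. simulans and at or above 0 in the other sets.

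Over the 18 group means, dme-miR-2500 and dsi-miR-965 had a Pearson correlation of 0.99, dme-miR-289 and dan-miR-289 one of 0.89, and dme-miR-956 and dme-mir-314-5p one of 0.70. These describe 18 points that share arrays, slides and strains. The first pair lay near the background in every group outside D. simulans, so its 0.99 restates the species split. Among probes for other miRNAs, the one most like dme-miR-2500 was the custom probe dme-mir-275-5p (0.80), which was also the one most like dsi-miR-965 (0.76), and dme-miR-958 was the most like dme-miR-956 (0.71), followed by lmi-miR-10 (0.68). For dme-mir-314-5p they were dps-miR-2571* (0.80) and dps-miR-1000* (0.77), for dsi-mir-314-5p aae-miR-14 (0.64) and dme-mir-284-5p (0.63), and for dme-miR-986 the probes of miR-31a (0.60) and dsi-miR-1012 (0.57). For dme-miR-289 no probe of another miRNA exceeded 0.54.

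Other miRNAs that were named with miR-289 and miR-314 as activity-regulated at the larval synapse, miR-1, miR-8 and miR-958, had 9 probes on the array, of which 8 were tested. Between females of the 2 species 2 of them were higher and 1 lower in D. simulans at the earlier stage, and 2 higher and 0 lower at PF, where 36.4% and 29% of all 272 probes passed. The lower one was dme-miR-958, by -1.07 ± 0.40 (limma adjusted p = 0.0292). Towards PF 4, 4, 2, 2 and 4 of the 8 fell in D. melanogaster males and females, D. simulans males and females and D. yakuba males, and 1 rose, in D. melanogaster females, while 58, 72, 33, 38 and 40 of all 272 probes fell. The steepest fall in each set was that of dps-miR-958, from -1.62 ± 0.18 in D. simulans females to -2.50 ± 0.18 in D. yakuba males. By listing, 10 tested probes were named for D. melanogaster alone, and 2 of them were higher and 2 lower in D. simulans females at the earlier stage, and 3 higher and 2 lower at PF, beside the same 36.4% and 29% over all probes. These 10 include dme-miR-2500, among the higher at both stages, and dme-miR-956, among the lower.

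Of 32 probes for miRNAs linked to the testis 2 were tested and 20 were above background in no sample, and dme-miR-964 was lower in D. simulans than in D. melanogaster females at the earlier stage by -2.16 ± 0.62 (limma adjusted p = 0.00517). The summed log2 level of the 2 tested probes, dme-miR-964 and dme-miR-974, ran from 7.21 to 13.65 in Zimbabwe-109 females at the earlier stage and from 6.91 to 7.48 in D. simulans females. Their part in the female differences was not tested. The stage marker let-7 (probe der-let-7) rose in every set, by 4.67 ± 0.24 in D. simulans females to 5.39 ± 0.24 in D. yakuba males. Between females at the earlier stage, 4 of 9 tested let-7, miR-100 and miR-125 probes were higher in D. simulans and 1 lower (36.4% of all probes passed). Among them der-let-7 differed by 1.26 ± 0.29 (limma adjusted p = 4.65e-04) and dpu-miR-100 by -1.25 ± 0.42 (0.0151). At PF 3 were higher and 3 lower (29% of all). Whether the females were matched in stage was not tested.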

How the data were processed

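A service company labelled the RNA, per the labels' protocols, and 2 samples shared an array. The deposited raw files give a spot intensity for both channels, per the file headers; scanner and software were not stated. The authors' deposited table (4333 rows, linear intensity, of unknown scale and centring) was tried as an alternative. Both stages of a strain and sex with one replicate number shared an array in opposite dyes, per the file headers, which pairs them; their deviations from group means correlated above 0.1 on 27 of 36 arrays.

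Background was taken from the 689 empty spots of an array. Intensities were corrected by normexp (offset 50), normalized by lowess within arrays over miRNA spots and by Aquantile between arrays, and put on the log2 scale, with the median of 3 spots per probe. Probes 3 SD above the empty spots in at least 3 samples of a group were tested by limma (version 3.58.1, with statmod 1.5.0, R 4.3.3). One model held the 18 groups, a dye term and the array as a random block (correlation 0.49). Benjamini-Hochberg adjustment ran over 272 probes within a contrast, at 0.05. Replicates are called biological in the design text, and p-values measure the spread between these samples. The number of arrays limits the precision. Figures were drawn with matplotlib 3.10.9, and the steps were tested on simulated data.

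The genes, lists and tests were chosen with earlier results of these data known. All probes found by name are accounted for and the tested ones described in full. Likeness took, per probe, the 2 probes of other miRNAs with the highest correlation of group means, and lists name at most 3 probes per comparison. Alternatives changed background, normalization, filter, blocks, slide and the left-out array.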

Additional observations from a re-analysis of the deposited data

Results flagged for a closer look

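In 6 of 162 sets of 4 samples, 1 sample stood far from the other 3, and chance alone flags about 1 set in 20. In D. simulans females at PF the highest dme-miR-2500 sample read 9.07, with the next at 8.64. In Zimbabwe-109 males at the earlier stage the lowest dsi-miR-965 sample read 5.87, next to 5.97, and in Zimbabwe-109 females at PF the highest read 6.28, next to 6.04, both near the background. The highest dme-miR-289 sample (der-miR-289 in the files) was 9.30 in Oregon-R males at PF, next to 8.74, and 9.54 in Zimbabwe-109 males at the earlier stage, next to 7.97. The lowest dan-miR-289 sample in Oregon-R males at the earlier stage was 6.50, next to 7.03.

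The stage change in D. simulans females differed from that in D. melanogaster females for 5 of 9 probes by limma's test of the difference itself. The differences were -2.42 for dme-miR-289 (adjusted p = 8.56e-09), -1.30 for dan-miR-289 (9.67e-06), 0.90 for dme-mir-314-5p (8.03e-04), -0.56 for dme-miR-986 (0.0175) and -0.28 for dsi-mir-314-5p (0.0111). For dme-mir-314-5p all D. simulans samples were below background at both stages, and for dsi-mir-314-5p 1 of 16 D. melanogaster samples was above it. Of all 272 probes 26.1% passed this test, which was added after the data were seen.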

How the results depend on the processing

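For 39 results on these probes that passed the test, 922 values were computed under alternatives: 831 kept direction and call, 86 lost the call and 5 turned their sign. Leaving out 1 array gave 420 of them, of which 19 lost the call and 0 turned. The 39 results include the stage calls in males and the calls among strains, both on male samples that entered the selection, so this tally is a description. The differences between females in dme-miR-2500 and dme-miR-956 passed under every setting tried, from 2.36 to 11.35 and from -4.16 to -1.41 at the earlier stage.

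The number of the 9 probes called moved by over 1.5 times in these cases, and the cause was not tested unless named. For the stage change in D. simulans males it was 2, and 4 with plain background subtraction, a normexp offset of 16, median centring or quantile normalization, and 1 with probes required in all 4 samples of a group, a filter that took D. yakuba males from 2 to 1. In D. melanogaster males it went from 3 to 6 with median centring, and likewise in the authors' table (centred or not), which took D. melanogaster females from 6 to 2. In D. simulans females it went from 5 to 3 with no filter on dim probes, to 2 with no replicate block (arrays not paired), and to between 3 and 4 with 1 of their replicates left out. Between females it went from 7 to 4 at the earlier stage in the authors' table and from 5 to 8 at PF without normalization between arrays. Among strains it went from 4 to 2 without normalization between arrays and to 1 in the authors' table at the earlier stage, and from 5 to 2 at PF in the authors' table and with slide as a fixed block. No other call count moved that far under the block.

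Where a value passed in at least one of the fits compared, or was an untested male difference beyond its replicate SD, signs turned as follows. Between females at the earlier stage, der-miR-289 (dme-miR-289) became -0.36 and dme-miR-986 -0.37 without normalization between arrays, and -0.45 and -0.34 in the authors' table, and dan-miR-289 became -0.77 without that normalization. At PF dme-miR-986 became -0.92 and dme-mir-965-5p -0.50 without it, and dme-mir-314-5p 0.60 with slide as a fixed block. The stage change became -0.41 for der-miR-289 in D. melanogaster males and -0.025 for dsi-miR-965 in D. simulans females in the centred authors' table. The untested D. yakuba minus D. melanogaster difference in males for der-miR-289 became 0.45 and 0.44 without normalization between arrays and 0.60 and 0.76 in the authors' table, at the 2 stages. Differences that passed in neither fit turned as well, among them dme-mir-965-5p in females at the earlier stage (-0.36 without normalization between arrays and -0.83 in the authors' table) and at PF in the authors' table (-0.96), dan-miR-289 at the earlier stage (-1.20) and dme-miR-986 at PF (-1.14) in that table, and dsi-mir-314-5p at PF (-0.08) without that normalization.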
